A study of Bos taurus with 6 samples.

Results

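Muscle fat in beef cattle is stored as triglyceride in lipid droplets, and the genes described here encode proteins that bring fatty acids into cells, coat the droplets and release fatty acids and glycerol from them. The set was chosen by name as 10 genes, with earlier results of these data known. Of these genes 9 have a probe set on the array that its annotation assigns to that gene alone. These are CD36, LPL, FABP4, PLIN2, CIDEA, CIDEC, LIPE, PNPLA2 and AQP7, with 13 probe sets of 24016 tested. PLIN1, which codes for perilipin 1 of the fat cell droplet, was not analysed here. FABP4 has 2 probe sets and LIPE has 4, and the other 7 genes have 1 each.

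Expression was measured in longissimus thoracis, the long muscle of the back, of 6 castrated males of the Japanese Black beef breed. The supplemented group of 3 steers was dosed weekly by mouth with vitamin A, at 296.8 IU per kg of body weight, and the 3 steers of the restricted group went without this supplement. All 6 entered at 13 to 14 months of age and were fattened over 7 months on feed meant for a gain of 1.0 kg per day, to an age of 20 to 21 months. Ages were 600 to 618 days in supplemented and 589 to 611 days in restricted steers (means 610 and 598.3 days, exact two-sided permutation p = 0.2, the smallest this design allows being 0.1).

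Each array held RNA of 1 steer, and the values are those deposited by the authors, taken as log2 values. They differ very little between arrays, a probe set's highest and lowest array lying a median of 6.77e-07 apart, and how this narrow spread came about is not given in the sources used here. A difference is therefore stated in log2 units as deposited, and also relative to the within-group standard deviation (SD) of that probe set, and is not a fold change. Medians of the 6 arrays lay 8.88e-06 apart, so that a smaller spread in a probe set is within the offset between arrays. Of 12 skeletal muscle markers 9 were measured, and each lay above 99.6% of the tested probe sets, DES being lowest at the 99.65th percentile.

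Lipoprotein lipase, the product of LPL, frees fatty acids from circulating triglyceride at the capillary wall, CD36 helps them across the cell membrane, and FABP4 binds them inside fat cells. Perilipins such as PLIN2 coat the droplet, and CIDEA and CIDEC promote its growth by lipid transfer between droplets. PNPLA2 and LIPE act in sequence on triglyceride and diglyceride, and AQP7 lets the glycerol leave the cell. In muscle these genes are expressed to differing degrees by fat cells between the fibres, by capillary endothelium and by the fibres themselves, and intramuscular fat is the basis of marbling in this breed. In tissue samples such as these, fewer cells of a type and less RNA per cell cannot be told apart.

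Restricted steers had the higher mean in 11 of the 13 probe sets, and in all 9 genes when only the probe set with a gene's highest mean is taken, but none of the differences passed the test. With equal array medians 10 of 13 probe sets and all 9 genes were higher, against 6.96% of all tested probe sets. That scaling takes the same amount from every difference, so any probe set with a smaller positive difference turns to lower by construction. With quantile normalization 5 of the 6 genes that then had a direction were higher, PNPLA2 being lower, against 35.5% of the 8560 probe sets that could be fitted. By limma with Benjamini-Hochberg adjustment over all tested probe sets, 0 of 13 were called, and each had an adjusted p of 1. Among all tested probe sets 1 was called, 0.00416%, and it was lower in restricted steers. At an unadjusted limma p under 0.05 the count was also 0 of 13, against 4.08% of all tested probe sets. The median difference of the 13 probe sets was 0.967 within-group SDs, beside -0.0322 over all tested probe sets, of which 48.3% were higher in restricted steers. The direction count is a description, because the 9 genes, each taken as 1 probe set, varied together from steer to steer. The probe sets of LIPE did not all vary together.

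**Figure D1:**
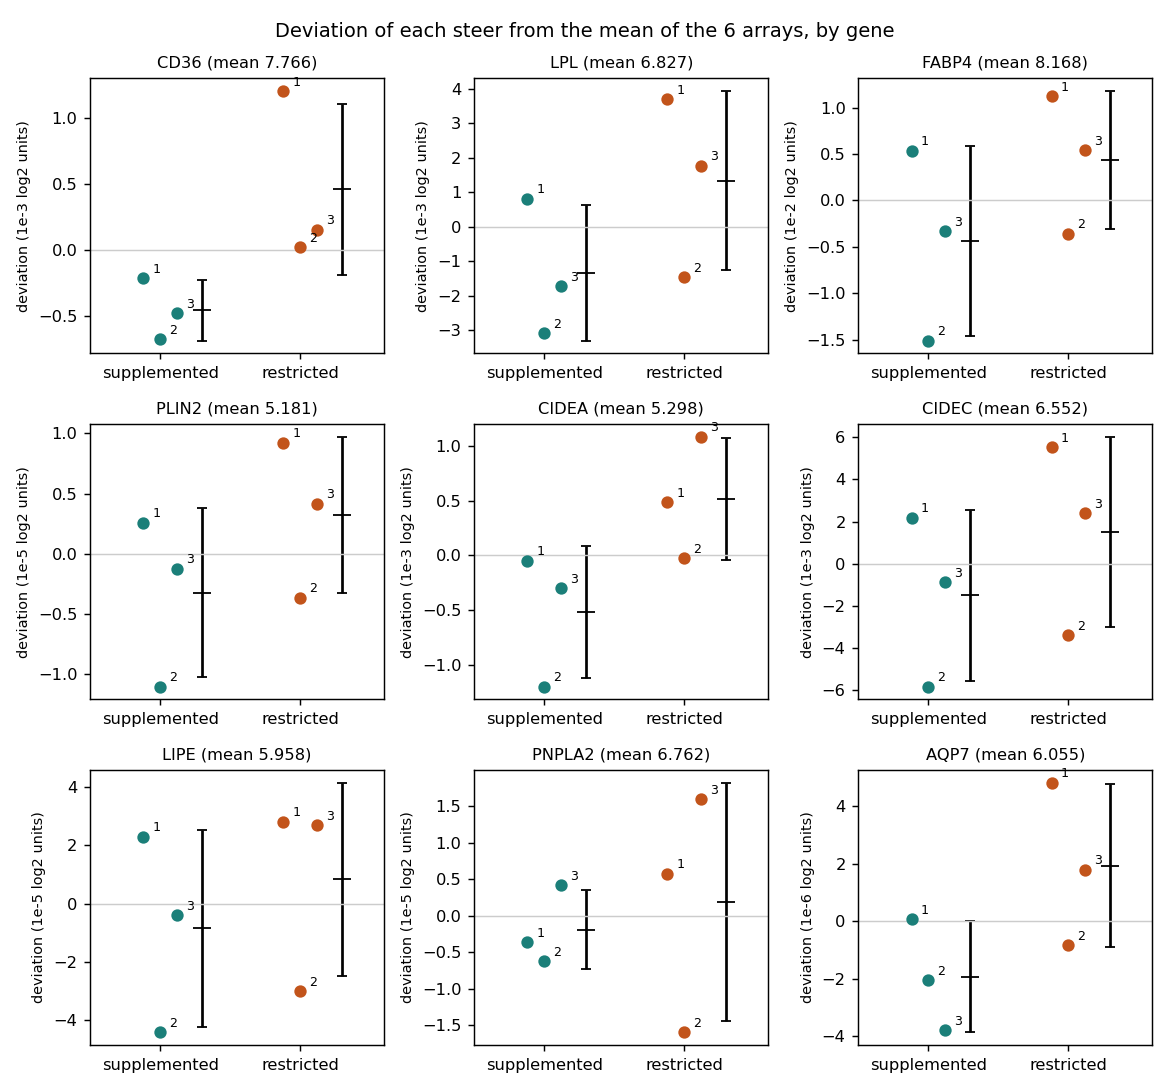
Deviation of each steer's deposited log2 value from the mean of the 6 arrays, 1 panel per gene (probe set with the highest mean), with the unit of the vertical axis given in each panel. Points are steers labelled by replicate number, and the black bars give the mean and SD of each group of 3. Groups did not overlap in CD36 and CIDEA and overlapped in the other 7 genes.

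Among the genes of uptake, CD36 stood apart between the diets without reaching the threshold. Its values were 7.76584, 7.76537 and 7.76557 in supplemented steers 1, 2 and 3, and 7.76726, 7.76607 and 7.76621 in restricted steers 1, 2 and 3. All 3 restricted steers lay above all 3 supplemented ones, and restricted steer 1 lay well above the others. The difference was 0.000918 ± 0.000376 (SE, n = 3 each) or 1.88 SDs, with a 95% interval from -8.31e-05 to 0.00192 (limma unadjusted p = 0.0643, adjusted p = 1). With quantile normalization CD36 had no direction between the diets.

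LPL, the lipase that supplies the fatty acids, had values of 6.82787, 6.82397 and 6.82533 in supplemented steers 1 to 3 and 6.83076, 6.82560 and 6.82883 in restricted steers 1 to 3. The groups overlapped, with restricted steer 2 below supplemented steer 1. The difference was 0.00267 ± 0.00178 (SE, n = 3 each) or 1.15 SDs (limma unadjusted p = 0.201, adjusted p = 1).

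FABP4, the fatty acid binding protein of fat cells, varied more between steers than any other gene of the set. In its probe set with the higher mean the supplemented steers read 8.1736, 8.1531 and 8.1650, and the restricted steers 8.1795, 8.1647 and 8.1737. Supplemented steer 2 was lowest and restricted steer 1 highest, and restricted steer 2 lay below 2 of the 3 supplemented steers. The difference was 0.00871 ± 0.00692 (SE, n = 3 each) or 0.971 SDs (limma unadjusted p = 0.270, adjusted p = 1). The other FABP4 probe set differed by 0.00264 or 0.967 SDs. Both probe sets ordered the 6 steers identically (Pearson r = 0.990, exact permutation p = 0.00139; Spearman rho = 1.0, exact permutation p = 0.00278), with r = 0.964 without the 2 steers farthest from the median. Over the 7 pairs of probe sets that share a gene, the adjusted permutation p was 0.00973 for r and 0.0195 for rho.

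Of the droplet genes, CIDEA also separated the diets. It read 5.29798, 5.29683 and 5.29773 in supplemented steers 1 to 3, and 5.29852, 5.29800 and 5.29911 in restricted steers 1 to 3. Restricted steer 2 lay only just above supplemented steer 1, so that the gap between the groups was a small part of the range. The difference was 0.00103 ± 0.000449 (SE, n = 3 each) or 1.78 SDs, with a 95% interval from -0.000161 to 0.00223 (limma unadjusted p = 0.0755, adjusted p = 1). CD36 and CIDEA were the 2 of 13 probe sets, 15.4%, without overlap of the groups, a lack of overlap seen in 8.76% of all tested probe sets.

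CIDEC, the paralogue of CIDEA that predominates in white fat cells, had a wider range and a smaller difference relative to it. Supplemented steers 1 to 3 read 6.55395, 6.54594 and 6.55090, and restricted steers 1 to 3 read 6.55729, 6.54837 and 6.55415. The lowest values in each group came from its steer 2, and the groups overlapped. The difference was 0.00301 ± 0.00331 (SE, n = 3 each) or 0.701 SDs (limma unadjusted p = 0.410, adjusted p = 1).

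PLIN2, a droplet coat protein of many cell types, kept the steers in the same order as CIDEC in the values as deposited, on a much narrower scale. Its values ran from 5.181418 in supplemented steer 2 to 5.181438 in restricted steer 1, a range of 2.02e-05. Its mean of 5.181 is close to the median of all tested probe sets, 5.145. The difference was 6.46e-06 ± 5.21e-06 (SE, n = 3 each) or 0.956 SDs (limma unadjusted p = 0.276, adjusted p = 1).

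Among the genes of lipolysis and glycerol exit, AQP7, the glycerol channel, had the largest difference in SDs. It was 6.055493, 6.055491 and 6.055489 in supplemented steers 1 to 3, and 6.055498, 6.055492 and 6.055495 in restricted steers 1 to 3. Restricted steer 2 fell between supplemented steers 1 and 2, and the other restricted steers were above all of the supplemented group. The difference was 3.86e-06 ± 1.87e-06 (SE, n = 3 each) or 1.59 SDs (limma unadjusted p = 0.101, adjusted p = 1). The whole range of AQP7, 8.62e-06, is within the offset between array medians, and once all arrays were given equal medians the difference was 1.63e-06.

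LIPE, the hormone-sensitive lipase, gave no common picture over its 4 probe sets. The probe set with the highest mean, at 5.957853, ran from 5.957809 in supplemented steer 2 to 5.957881 in restricted steer 1 and differed by 1.68e-05 ± 2.59e-05 (SE, n = 3 each) or 0.4995 SDs (limma unadjusted p = 0.549, adjusted p = 1). The other 3 probe sets of LIPE differed by 1.04, -0.0444 and -0.630 SDs, and their ranges of 3.90e-08 to 2.01e-06 are all within the offset between arrays. Correlations between the 4 over the 6 steers ran from r = -0.0846 to r = 0.641 in 6 pairs, none with an exact permutation p below 0.164 (adjusted p = 0.574 over the 7 pairs of probe sets that share a gene, Spearman rho = 0.429 with exact permutation p = 0.419 in that pair). Without the 2 steers farthest from the median, r of that pair was -0.248.

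PNPLA2, the adipose triglyceride lipase that takes the first step of lipolysis, showed the smallest difference in SDs of the 9 genes by their leading probe sets. It read 6.762136, 6.762133 and 6.762144 in supplemented steers 1 to 3, and 6.762145, 6.762123 and 6.762155 in restricted steers 1 to 3. The supplemented steers lay within the range of the restricted ones. The difference was 3.84e-06 ± 9.40e-06 (SE, n = 3 each) or 0.315 SDs (limma unadjusted p = 0.702, adjusted p = 1), and turned to -0.000279 with quantile normalization and to -3.20e-06 without restricted steer 3.

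**Figure D2:**
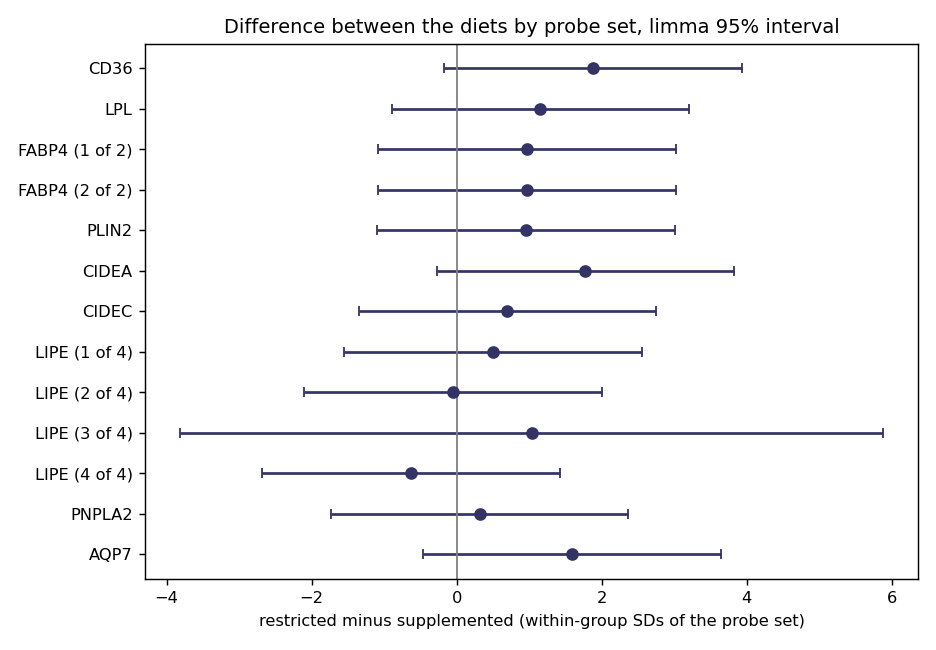
Restricted minus supplemented difference of each of the 13 probe sets, in within-group SDs of that probe set, with the 95% interval of the limma fit (3 steers per group). Probe sets of FABP4 and LIPE are numbered from the highest to the lowest mean. The points run from -0.630 to 1.88 SDs, and every interval includes 0.

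The spread between steers set the genes apart from most of the table. FABP4 ranked 13th and 40th by range among 24016 tested probe sets, CIDEC 31st, LPL 44th, CIDEA 111th and CD36 134th. A range over 0.001, a value chosen after the ranges were seen, occurred in 6 of the 13 probe sets, 46.2%, and in 199 of all tested probe sets, 0.829%. By contrast LIPE ranked 1010th with its leading probe set, PNPLA2 1642nd, PLIN2 2191st and AQP7 3455th. The unit of the deposited values may not be the same from probe set to probe set, so these ranks describe the table and not the amount of RNA.

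**Figure D3:**
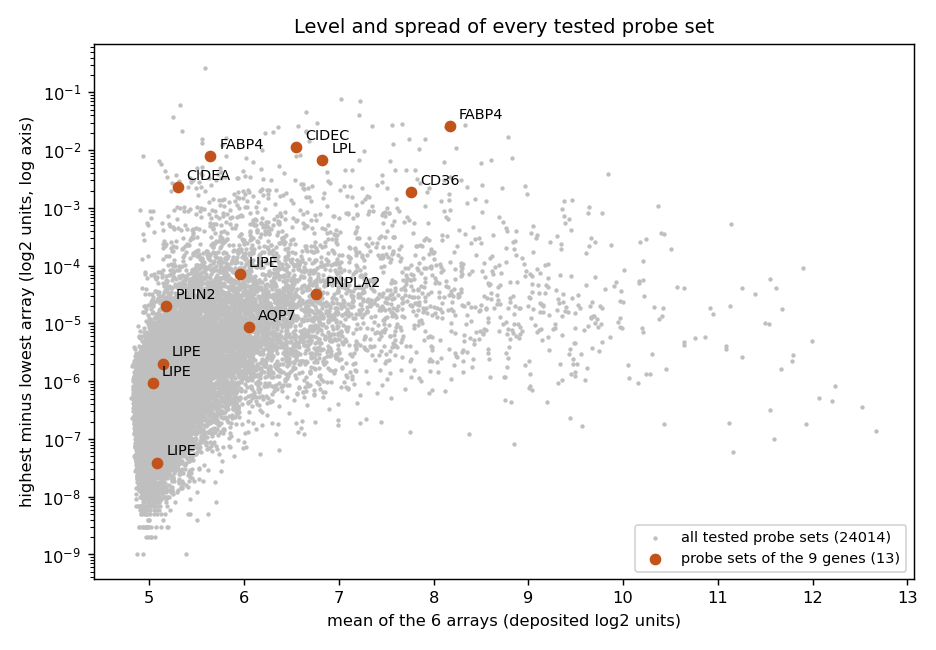
Mean over the 6 arrays (horizontal, deposited log2 units) against the highest minus the lowest array (vertical, log axis) for 24014 tested probe sets, 2 whose 6 values are identical not being drawn. Orange points are the 13 probe sets of the 9 genes. FABP4, CIDEC, LPL, CIDEA and CD36 lie at the upper edge of the cloud, between 0.00188 and 0.0263.

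The 9 genes varied together from steer to steer. With each gene represented by its leading probe set, Pearson's r was positive in all 36 pairs, from 0.328 for CD36 with PNPLA2 to 0.989 for FABP4 with PLIN2, with a median of 0.804. By exact permutation of the 6 steers with adjustment over the 36 pairs, 12 pairs were under 0.05 for r and 13 for rho. How often pairs of other genes in the table reach such values was not tested. In the values as deposited, FABP4, PLIN2, CIDEC and LIPE put the 6 steers in an identical order, lowest to highest supplemented 2, restricted 2, supplemented 3, supplemented 1, restricted 3 and restricted 1. In the 6 pairs among these 4 genes rho was 1.0 (exact permutation p = 0.00278, adjusted 0.0167), and r was 0.938 or more (exact permutation p = 0.00139, the smallest the 6 steers can give, adjusted 0.00834). Without the 2 steers farthest from the median of the first gene, r in these 6 pairs was 0.922 to 0.999. All pairs were correlated without giving the arrays equal medians. The range of PLIN2 is only 2.28 times the offset between arrays. In PLIN2 supplemented steers 1 and 3, at 5.181432 and 5.181428, lie closer than their array medians, 5.144665 and 5.144659. Equal medians would therefore reverse these steers in PLIN2, and the order would no longer be identical.

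LPL followed these genes closely, with r = 0.955 for FABP4 (exact permutation p = 0.00972, adjusted 0.0350; rho = 0.943, exact permutation p = 0.0167, adjusted 0.0462) and r = 0.971 without the 2 farthest steers. CD36 was nearest to AQP7, with r = 0.921 (exact permutation p = 0.00833, adjusted 0.0333; rho = 0.886, exact permutation p = 0.0333, adjusted 0.0750) and r = 0.873 without the 2 farthest steers. The range of AQP7, 8.62e-06, is within the offset between array medians. AQP7 and the array medians were both lowest in supplemented steer 3 and highest in restricted steer 1. How far that offset makes up the relation of CD36 to AQP7 was not tested. The relation of CD36 to the droplet gene CIDEC, r = 0.781 (exact permutation p = 0.0583, adjusted 0.09999; rho = 0.829, exact permutation p = 0.0583, adjusted 0.0750), fell to r = 0.124 without supplemented steer 2 and restricted steer 1 and so rests on those steers. Without the same steers r of CD36 with LPL, a pair under 0.05 for r and rho, fell from 0.883 to 0.572. It also fell with FABP4 (0.804 to 0.401), PLIN2 (0.823 to 0.284), LIPE (0.617 to 0.115) and PNPLA2 (0.328 to 0.0864). With CIDEA it rose from 0.675 to 0.801. PNPLA2 was the gene least like the others, with r from 0.328 to 0.719 in its 8 pairs and no adjusted p under 0.05. After subtraction of each group's mean, r was still positive in all 36 pairs, with a median of 0.785, so that the shared variation is also present within the diets. No processing batch is named in the labels, and relations within batches could not be given.

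**Figure D4:**
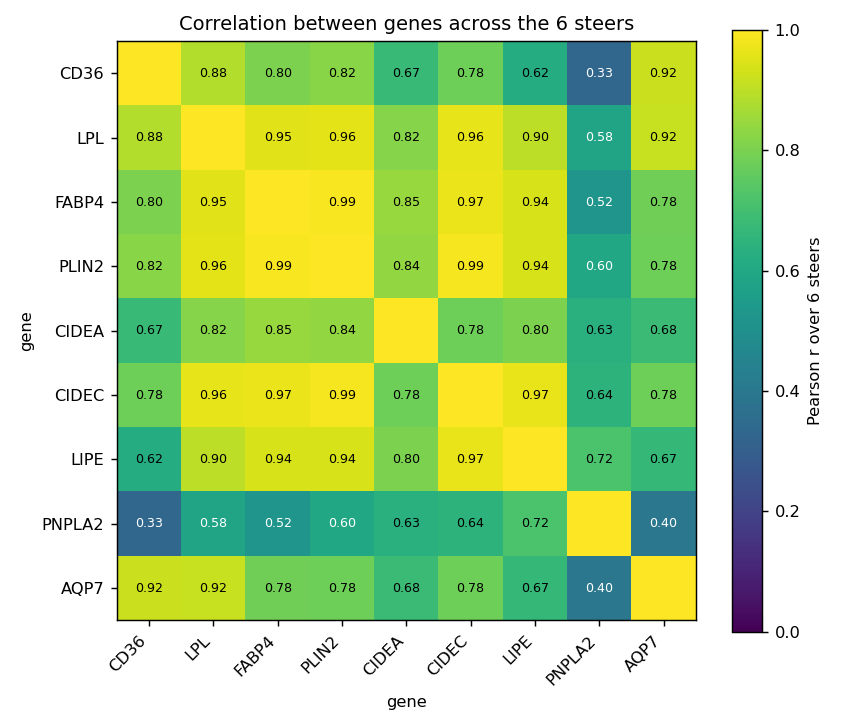
Pearson r of the values as deposited over the 6 steers for each pair of the 9 genes, 1 probe set per gene (the one with the highest mean), with the colour scale from 0 to 1. The pairs among LPL, FABP4, PLIN2, CIDEC and LIPE have r of 0.8998 or more, and PNPLA2 has the lowest values.

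The steers at the ends of this order were from different diets. Restricted steer 1 was highest in 7 of the 9 genes and restricted steer 3 in the other 2, CIDEA and PNPLA2, while over all tested probe sets these steers were highest in 16.5% and 15.5%. Supplemented steer 2 was lowest in 7 of the 9 genes, against 14.8% of all tested probe sets; the lowest value of AQP7 came from supplemented steer 3 and that of PNPLA2 from restricted steer 2. Averaged over the 9 genes in SDs over the 6 arrays, supplemented steers 1, 2 and 3 stood at 0.203, -1.23 and -0.394, and restricted steers 1, 2 and 3 at 1.19, -0.552 and 0.775. Restricted steer 2 thus lay below 2 of the 3 supplemented steers.

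Single steers decided how far the groups lay apart. Without restricted steer 2 the groups did not overlap in 10 of the 13 probe sets, where 19.4% of all tested probe sets did not overlap, and without supplemented steer 1 in 5 of 13, against 18.9%. Without supplemented steer 2 the differences of FABP4 (leading probe set) and CIDEC were 0.00333 and 0.000844, and that of LIPE turned to -1.17e-06. Without restricted steer 1 the unadjusted limma p of CD36 was 0.0381 and without restricted steer 2 that of AQP7 was 0.0444, in both cases with an adjusted p of 1. When age was added to the model, the differences of CD36, LPL, FABP4 and CIDEC were 0.000578, 0.00171, 0.00504 and 0.00163, all still higher in restricted steers, and that of CIDEA was 0.00117. None of these alternatives gave an adjusted p under 0.05 for any of the 13 probe sets.

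Other markers of fat cells had a similar order of steers. Of 12 such markers outside the set 10 were measured. All 10 had the higher mean in restricted steers, beside 48.3% of all tested probe sets. With equal array medians 6 were higher, beside 6.96% of all, and LEP, CEBPA, RETN and TRARG1 were lower. With quantile normalization 6 of 7 were higher, beside 35.5% of the probe sets that could be fitted, and LEP was lower. The ranges of LEP, PPARG, CEBPA, RETN and TRARG1, 7.46e-06 or less, are within the offset between arrays. Of the 10 markers 0 were called and 2, CFD and RBP4, were at an unadjusted limma p under 0.05. The mean of the 10 markers in SDs, each weighted equally, was 0.141, -0.857 and -0.773 in supplemented steers 1 to 3 and 1.00, -0.142 and 0.628 in restricted steers 1 to 3. Their summed log2 value, to which the widely varying THRSP contributed most of the spread, ran from 54.719 to 54.793 in supplemented and from 54.739 to 54.797 in restricted steers. None reads 0 on this log scale, and CEBPA and RETN lay below the median level of all tested probe sets. Whether the number of fat cells in the sampled piece had a part in the values of the 9 genes was not tested. Complement factor D, the adipocyte-secreted protease encoded by CFD, differed by 0.000157 or 6.35 SDs (limma unadjusted p = 0.000717, adjusted p = 1), and the adipokine ADIPOQ by 7.57e-05 or 1.78 SDs. RBP4, the retinol carrier, differed by 2.51e-05 or 2.12 SDs, and PCK1, an enzyme of glyceroneogenesis, by 0.000241 or 1.76 SDs.

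Markers of other cells in muscle, some of which can express CD36, FABP4 or LPL, were counted as well. Of all tested probe sets 48.3% were higher, and 6.96% with equal array medians. With quantile normalization 35.5% of those that could be fitted were higher. Endothelial markers had 6 of 9 measured genes higher and 3 lower in restricted steers, 0 called. The counts were 3 and 6 with equal array medians and 2 and 2 with quantile normalization. CLDN5, CDH5, TEK and EGFL7 differed by 1.37, 1.16, 1.06 and 0.903 SDs. The 3 lower genes, KDR, TIE1 and ERG, differed by -1.21, -0.631 and -0.3815 SDs. Of these named genes only TEK ranged over more than the offset between arrays. CLDN5 and EGFL7 turned to lower with equal medians, and EGFL7 also with quantile normalization. The mean of the 9 endothelial markers was highest in restricted steer 1, at 0.843, but -0.376 in restricted steer 3. Their summed value was 48.17440 to 48.17444 in supplemented and 48.17441 to 48.17446 in restricted steers. Macrophage markers had 2 of 8 higher and 6 lower, 0 called. The counts were 0 and 8 with equal array medians and 2 and 1 with quantile normalization. AIF1, MSR1, C1QA and CSF1R differed by -1.90, -1.54, -0.994 and -0.729 SDs, and of these only C1QA ranged over more than the offset between arrays. The macrophage markers summed to 42.33875 to 42.33898 in supplemented and 42.33869 to 42.33877 in restricted steers. Muscle markers had 2 of 9 higher and 7 lower, also with equal array medians, 0 called, and none had a direction with quantile normalization. MYH1 of fast fibres differed by -3.46 SDs in its probe set of highest mean (limma unadjusted p = 0.00836, adjusted p = 1), and 6 of its 8 probe sets had this direction. MB, MYL1 and ACTA1 differed by -0.842, -0.730 and -0.497 SDs, with ranges of 5.1e-07 or less, within the offset between arrays. The 9 muscle markers summed to 102.1989 to 102.1994 in supplemented and 102.1989 to 102.1996 in restricted steers. The part of these cells in the values of the 9 genes was not tested.

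**Figure D5:**
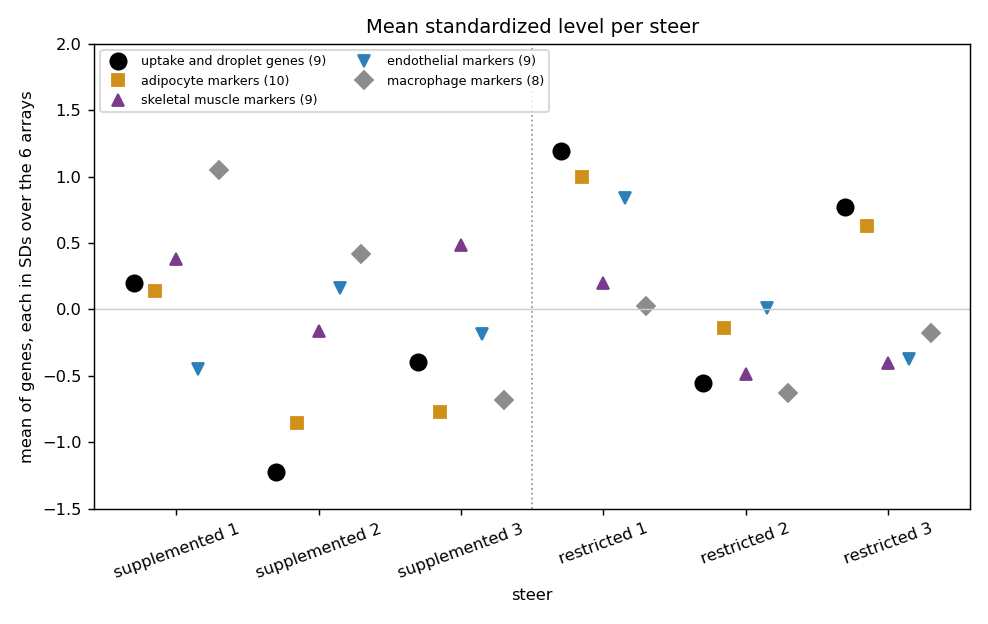
Mean standardized level of the 9 uptake and droplet genes and of 4 marker lists in each steer (vertical axis, each gene in SDs over the 6 arrays; number of genes in the legend), with the dotted line between the diets. The adipocyte markers are lowest in supplemented steers 2 and 3 and highest in restricted steer 1, at 1.00, where the 9 genes stand at 1.19.

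The wider pathway was described with 4 lists of its other genes, and 0 of their members were called. Each direction count is also given with equal array medians, where 6.96% of all tested probe sets were higher, so that mostly lower genes under that scaling are what the whole table shows. In the fit of the values as deposited 48.3% were higher. Of 12 measured genes of fatty acid uptake and binding 8 were higher and 4 lower in restricted steers (4 and 8 with equal medians), with a median of 0.372 SDs. GOT2, a mitochondrial aminotransferase also described as a fatty acid binding protein of the plasma membrane, differed by 2.47e-05 or 2.26 SDs (limma unadjusted p = 0.0371, adjusted p = 1). The acyl-CoA synthetases ACSL1 and ACSL6 differed by 1.21 and -0.801 SDs. FABP5, a fatty acid binding protein close to FABP4, differed by 0.000990 or 1.17 SDs without overlap of the groups. The 2 binding proteins are similar in sequence, and how far their probe sets tell them apart was not tested.

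Of 8 measured genes that work with lipoprotein lipase or on the same lipoproteins, 4 were higher and 4 lower (1 and 7 with equal medians), with a median of 0.141 SDs. APOC2, the activator of the enzyme, differed by -1.57 SDs, SEL1L, which takes part in its maturation, by -1.11 SDs, the lipoprotein receptor VLDLR by 0.862 SDs and APOA5 by -0.425 SDs. Of these, only VLDLR and SEL1L ranged over more than the offset between arrays.

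Of 11 other genes of droplet coat and formation 7 were higher and 4 lower (3 and 8 with equal medians), with a median of 0.172 SDs. PLIN3, another perilipin, differed by 1.45 SDs, RAB18, a droplet-bound GTPase, by 1.24 SDs, CAVIN1 of caveolae by 0.988 SDs and the droplet hydrolase LDAH by -2.51 SDs. The ranges of PLIN3 and LDAH, 6.32e-07 and 1.29e-07, and of RAB18, 4.57e-06, are within the offset between arrays. With equal medians PLIN3 and RAB18 turned to lower, as any probe set with so small a difference does there.

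Of 12 genes of lipolysis control and glycerol exit 5 were higher, 6 lower and 1 equal (1 higher and 11 lower with equal medians), with a median of -0.310 SDs. G0S2, the inhibitor of the lipase PNPLA2, differed by 0.00252 ± 0.000943 (SE, n = 3 each) or 2.06 SDs, with all restricted above all supplemented steers (limma unadjusted p = 0.0495, adjusted p = 1), and ranked 53rd by range. AQP3, another glycerol channel, differed by 2.03 SDs, turning to lower with equal medians and with quantile normalization, PRKAR2B, a regulatory subunit of protein kinase A, by -1.73 SDs and the adenosine receptor ADORA1 by -1.75 SDs, all with ranges of 2.45e-06 or less. Over the 79 measured genes of these 4 lists and the 4 marker lists together, 5 were at an unadjusted limma p under 0.05, 4 higher and 1 lower. That is 6.33%, beside 4.62% of all 9155 genes, each represented by its leading probe set.

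Genes outside the set with the most similar order of levels were sought among 2271 probe sets with 1 gene, a mean above the median and a range over the offset between arrays. A gene with several such probe sets stands for the one with the highest r, which for ACTG1 is not its probe set of highest mean. By Pearson's r over the 6 arrays with the mean of the 9 genes, given as a description, the 8 nearest were SULT1A1 (0.998), ACSM1 (0.996), LAMA4 (0.986), ACTG1 (0.986), NID2 (0.982), ELOVL6 (0.981), MGST1 (0.978) and GPAM (0.972). ELOVL6 elongates fatty acids, GPAM takes the first step of glycerolipid synthesis, and LAMA4 and NID2 are basement membrane proteins. Of the 2271 probe sets 62 had an r over 0.9, 2.73%, and the median r was -0.0003. These 8 genes differed between the diets by 0.786 to 1.77 SDs, with unadjusted limma p from 0.0769 to 0.360 and adjusted p of 1. All 8 were higher in restricted steers as deposited and with equal array medians. That direction largely follows from how they were chosen, because the mean of the 9 genes was itself higher in restricted steers. With quantile normalization 6 were higher, ACSM1 was lower and ACTG1 had no direction.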

How the data were processed

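Total RNA was extracted with Trizol and RNeasy columns, and 100 ng was used to make biotin-labelled RNA for 3 prime expression arrays, per the labels' protocols. The table deposited by the authors holds 24128 probe sets and 6 arrays, and its values, from 4.807 to 12.83, are taken as log2. The log base and the steps of background correction, normalization and summarization are not given in the sources. The 112 control probe sets were left out. The diets were compared with limma 3.58.1 (R 4.3.3; lmFit, then eBayes without trend) as restricted minus supplemented, and p-values were adjusted by the Benjamini-Hochberg method over the 24016 remaining probe sets at a threshold of 0.05. Values were multiplied by 1e+09 for the fit. Moderation was slight, with 0.483 prior and 4 residual degrees of freedom. A gene in a list stands for its probe set of highest mean.

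Gene names came from a platform annotation. All 9 genes matched ARS-UCD2.0 gene records by identifier with 0 symbols changed, and no coordinates are given because the array names no build. Genes were named by rule: all members, up to 4 genes of each list by unadjusted p, and the 8 nearest by r, each by its probe set with the highest r. Some other listed genes are named for their direction or level. Members and lists were chosen with earlier results of these data known. The code was tested on simulated data. Arrays give no molecule count, and their number limits the precision. Steers are separate animals, so the p-values reflect variation among animals of the same diet. Alternatives were another array scaling, the replicate block, age, array weights, variance priors, filters on level, averaging over the probe sets of a gene, and leaving out each steer.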

Additional observations from a re-analysis of the deposited data

How the results depend on the processing

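Over 196 differences of the 13 probe sets and 9 genes under the alternatives, 190 kept their direction, 6 turned, and 0 passed the adjusted threshold. The replicate block, the variance priors and the level filters leave each difference as it was, so it could not turn there. The same holds for averaging in genes with 1 probe set. Many of the 190 were thus fixed in advance. Those that turned were 1 LIPE probe set with equal array medians (-2.21e-06), PNPLA2 with quantile normalization (-0.000279) and without restricted replicate 3 (-3.20e-06), another LIPE probe set without supplemented replicate 1 (5.13e-07) and without restricted replicate 2 (1.85e-08), and the leading LIPE probe set without supplemented replicate 2 (-1.17e-06). Over the 6 fits that leave out a steer these ran from -3.20e-06 to 1.28e-05 in PNPLA2, from -4.93e-07 to 5.13e-07 in that LIPE probe set and from -1.17e-06 to 3.59e-05 in the leading one. LPL, FABP4, PLIN2, CIDEA and CIDEC turned under none of the alternatives. CD36 turned under none either, but it had no direction with quantile normalization. Quantile normalization left 15456 probe sets equal on all arrays, among them 4 of the 13, which have no value there. Of the 8560 others it called 22 (13 higher, 9 lower, against 0 higher and 1 lower as planned), 6 of 9 of the set were higher, with equal group means in 1, 0 were without overlap (0.596% of all fitted), and 0 listed genes were at an unadjusted p under 0.05. With equal array medians 2 probe sets of the set were at an unadjusted p under 0.05, against 0.916% of all tested probe sets there. With age as a covariate 0 of all probe sets were called, and 1 of the set (a LIPE probe set, lower) and 2 listed genes were at that p, against 4.09% of all probe sets. With the replicate block, which pairs steers by the number in their titles, 0 of all probe sets were called and 7 of the set, all higher, were at an unadjusted p under 0.05 (4.96% of all), with a smallest adjusted p of 0.862. The numbers are not stated to pair the animals, but they follow the order of age within each group. Deviations of same-numbered steers correlated by 0.0374, 0.0151 and 0.0152 over all probe sets, and those of differently numbered steers by -0.0214 to 0.0061. Leaving out each steer gave 1 to 2 calls over all probe sets, 2 with supplemented steer 3 left out. In the set 0 to 1 were at an unadjusted p under 0.05, 2 to 10 without overlap and 10 to 12 higher. Over all probe sets these shares were 3.96 to 4.89%, 17.9 to 19.4% and 47.5 to 49.6%. The cause of these changes was not tested.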
